A study of Homo sapiens with 6 samples.

Results

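The EGF family of growth factors and their ERBB receptors were followed in NCRM-1, an established human iPSC line, grown as aggregates in vertical wheel bioreactors. The family was taken as 10 genes named by symbol, the ligand genes HBEGF, AREG, EREG, BTC, TGFA and EGF and the receptor genes EGFR, ERBB2, ERBB3 and ERBB4. All 10 were among the 19977 genes counted. Polyadenylated RNA of 6 samples was sequenced on day 4 of culture. The 3 samples called PEG and HS were grown in E8 medium with 10 mg/ml polyethylene glycol (PEG) and 0.1 µg/ml heparin sodium salt (HS), and the 3 samples called E8 control in E8 alone. Both media carried the same line, were seeded with the ROCK inhibitor Y-27632 and had 50% of the medium replaced on day 2. The comparison asked which transcripts differed between a medium with both additives and one with neither, so the effects of PEG and of heparin cannot be told apart.

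The descriptions of the samples limit this comparison in a pair of ways. They read as 1 bioreactor for each medium, so a difference between vessels cannot be told apart from one between media, and p-values then measure only the spread between samples that may come from 1 culture. The treatment text also describes PEG and heparin for all 6 samples, although the treatment field gives 3 as control. The treatment field was followed, and no transcript checks it directly. Depth was 26991279 to 36185138 counts per library. The iPSC label was met by its markers, since all 8 pluripotent stem cell genes checked were well counted, the lowest being NANOG with 126 ± 0.610 CPM (SD, n = 3) in E8 control. Transcripts of NANOG, POU5F1 and TDGF1 share much sequence with other genes, so their counts may include reads from those. CPM are counts per 1000000 counts of the library after scaling between libraries.

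EGF family ligands are made as membrane-anchored precursors. Proteases of the ADAM family release their EGF domain, which binds a receptor on the same or a neighbouring cell. EGF, TGF-alpha (TGFA) and amphiregulin (AREG) bind EGFR, while HB-EGF (HBEGF), betacellulin (BTC) and epiregulin (EREG) bind both EGFR and ERBB4. ERBB2 has no known ligand of its own and serves as the preferred partner of the other receptors, and ERBB3 binds neuregulins but has little kinase activity. Receptor pairs signal through adaptors to RAS and ERK and to PI3K and AKT. HB-EGF binds heparin and cell surface heparan sulfate, as do amphiregulin and several neuregulins. E8 supplies FGF2, insulin and TGF-beta but no EGF family ligand.

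The receptor transcripts differed between media in opposite directions for EGFR and ERBB2, while ERBB3 and ERBB4 did not pass the test. Of the 10 genes, 8 had the 10 counts in total needed for testing, and 2 of these were called at an adjusted p under 0.05, EGFR higher and ERBB2 lower in PEG and HS. Among the 16505 genes tested, 25.3% passed, 12.2% upward and 13.1% downward with the additives, so 2 of 8 is the share found in the data set at large. Groups without overlap were seen for 3 of the 8 (EGFR, ERBB2 and TGFA), against 39.3% of all genes tested. The median log2 fold change of the 8 was 0.064, beside 0.0031 over all genes tested. Summed over the 10 genes, the family had 735 to 753 CPM with the additives, against 810 to 836 CPM without, and most of this sum was ERBB2.

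EGFR, the receptor for EGF, TGF-alpha and the other ligands above (ENSG00000146648, GRCh38 chr7:55019017-55211628, plus strand), was higher in PEG and HS. It stood at 14.3, 15.3 and 14.4 CPM in the 3 libraries with the additives, against 11.5, 11.7 and 11.6 CPM in those without. Each PEG and HS library was above each control, and the means were 14.7 ± 0.531 and 11.6 ± 0.137 CPM (SD, n = 3 each). The log2 fold change was 0.34 (SE 0.062, 95% interval 0.21 to 0.47, adjusted p = 0.0008014 from the quasi-likelihood F test of edgeR). EGFR shares 186 exon bases with the antisense gene EGFR-AS1, which is not analysed here. A larger change in either direction was found in 20.8% of the genes tested. The counts behind these values were 432 to 488 with the additives and 309 to 418 without. As the RNA came from whole aggregates, more cells with EGFR and more EGFR RNA per cell cannot be told apart, and the same holds for each transcript below.

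ERBB2, the partner receptor (ENSG00000141736, chr17:39687914-39730426, plus strand), was lower in PEG and HS. It had 568, 586 and 578 CPM with the additives, against 676, 663 and 647 CPM in E8 alone. No library of one medium reached the range of the other, and the means were 577 ± 8.68 and 662 ± 14.4 CPM (SD, n = 3 each). The log2 fold change was -0.20 (SE 0.026, 95% interval -0.25 to -0.14, adjusted p = 3.866e-05). This difference of 1.15-fold was smaller than that of 34.5% of the genes tested, and rested on 16545 to 23349 counts per library. Exons of ERBB2 share 571 bases with MIEN1 and 144 with PGAP3, both on the opposite strand. Counts would mix there if strand was not used, which the sources used here do not state. MIEN1 had 18.4 and 19.3 CPM (log2 fold change -0.075, adjusted p = 0.516) and PGAP3 22.5 and 24.7 CPM (-0.13, adjusted p = 0.173) in PEG and HS and E8 control. The shared bases are 5.53% and 1.40% of the ERBB2 exon length.

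ERBB3, the neuregulin receptor (ENSG00000065361, chr12:56076799-56103505, plus strand), had 143, 142 and 144 CPM with the additives, against 141, 141 and 142 CPM in E8 alone. The libraries of the media overlapped. Its log2 fold change was 0.013 (SE 0.027, 95% interval -0.045 to 0.070, adjusted p = 0.78), an interval that excludes a difference of the size seen in ERBB2 or EGFR. Exons of ERBB3 share 31 bases, 0.26% of its exon length, with ENSG00000257411, a counted protein-coding gene on the same strand. ERBB4, a receptor for neuregulins and for part of the EGF ligands (ENSG00000178568, chr2:211375717-212538841, minus strand), had 14 to 26 counts per library. It stood at 0.534, 0.602 and 0.621 CPM with the additives and at 0.519, 0.708 and 0.721 CPM without, so the media overlapped. Its interval of -0.81 to 0.49 around a log2 fold change of -0.16 (adjusted p = 0.754) was wide, so a change as large as that of EGFR was not detectable at this depth.

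**Figure D1:**
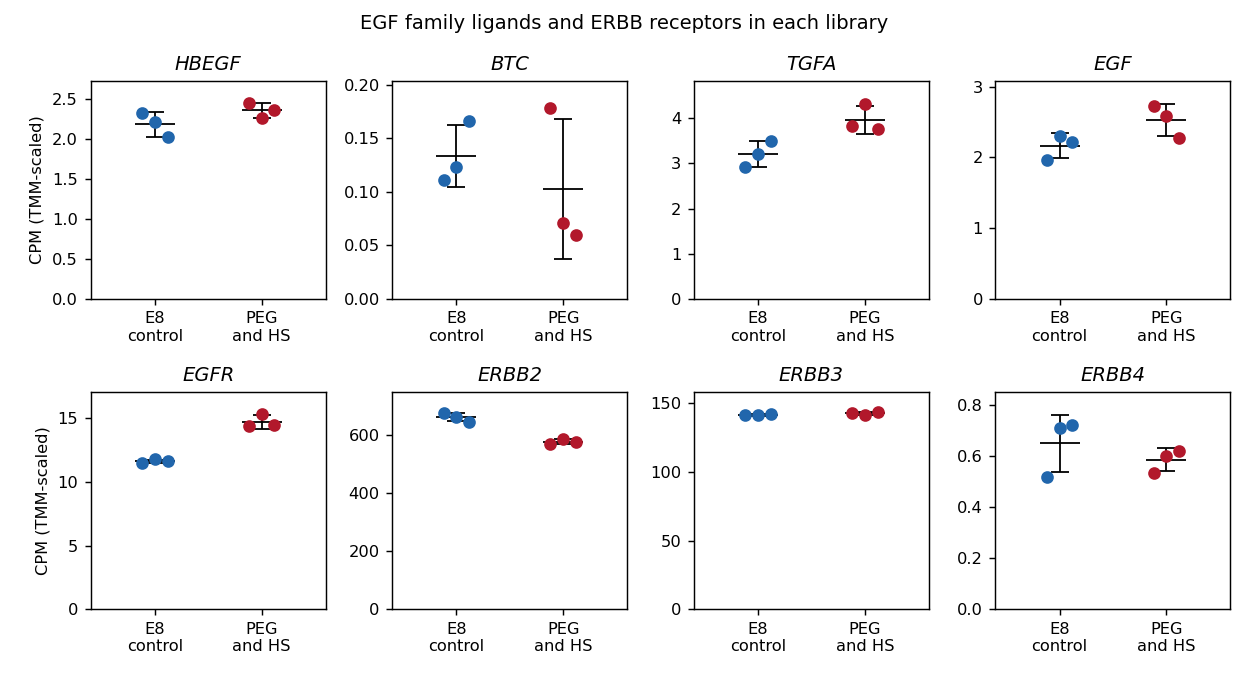
Transcript levels of the 8 EGF family and ERBB genes with at least 10 counts, in CPM on linear axes that differ between panels. Points are libraries, black lines are means of 3 and bars are SD. EGFR (11.5 to 15.3 CPM) and ERBB2 (568 to 676 CPM) have groups that do not overlap, in opposite directions, and TGFA (2.93 to 4.32 CPM) does so too without passing the test.

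The EGF ligand transcripts were all scarce. Among the 6 ligand genes, 4 could be tested and 0 were called by edgeR (25.3% over all genes), by DESeq2 or by limma-voom, a count too small to set the ligands apart from other genes. At an unadjusted p under 0.05, edgeR and limma-voom counted 1 of the 4 and DESeq2 0. Their median log2 fold change was 0.17, beside 0.0031 over all genes tested.

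TGFA, which encodes TGF-alpha (ENSG00000163235, chr2:70447284-70554193, minus strand), had 3.83, 4.32 and 3.75 CPM with the additives, against 2.93, 3.20 and 3.49 CPM in E8 alone. Each PEG and HS library lay above each control. The means were 3.97 ± 0.307 and 3.21 ± 0.282 CPM (SD, n = 3 each), with a log2 fold change of 0.30 (SE 0.13, 95% interval 0.028 to 0.57, adjusted p = 0.102 in edgeR). The unadjusted p of 0.033 did not hold after adjustment over all genes, and the adjusted p was 0.0858 or more in every alternative tried.

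HBEGF, the heparin-binding ligand (ENSG00000113070, chr5:140332843-140346603, minus strand), had 2.46, 2.27 and 2.36 CPM with the additives, against 2.34, 2.22 and 2.02 CPM in E8 alone. The highest control lay within the range of the PEG and HS libraries. The log2 fold change was 0.11 (SE 0.15, 95% interval -0.21 to 0.44, adjusted p = 0.643) on 63 to 83 counts per library. EGF itself (ENSG00000138798, chr4:109912883-110013766, plus strand) had 2.73, 2.58 and 2.28 CPM with the additives, against 1.97, 2.31 and 2.22 CPM in E8 alone, and here too the libraries of the media overlapped. Its log2 fold change was 0.22 (SE 0.16, 95% interval -0.11 to 0.55, adjusted p = 0.344). The intervals of HBEGF and EGF both include 0 and the size of the EGFR difference.

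BTC, which encodes betacellulin (ENSG00000174808, chr4:74744759-74794523, minus strand), was near the limit of detection, with 6, 2 and 2 counts with the additives and 3, 4 and 6 without. The log2 fold change of -0.37 had an interval of -1.78 to 1.04 (adjusted p = 0.739), and it was -1.03 without PEG and HS replicate 1. EREG, for epiregulin (ENSG00000124882, chr4:74365145-74388749, plus strand), had 0 counts in the PEG and HS libraries and 0, 2 and 1 in E8 control. AREG, for amphiregulin (ENSG00000109321, chr4:74445136-74455005, plus strand), had 0 counts in all 6 libraries. A count of 0 allows up to 3 counts, or 0.0831 to 0.111 CPM depending on the library, for counting error only. EREG and AREG were not tested.

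AREG, EREG and BTC lie in one block of EGF ligand genes on chromosome 4 together with EPGN, the gene of epigen, another ligand of EGFR. These 4 were the only genes of the count files inside the 486.1 kb from 74308470 to 74794523. Summed over the 6 libraries, they had 10 (EPGN), 3 (EREG), 0 (AREG) and 23 (BTC) counts, while the nearest genes on either side, MTHFD2L and PARM1, had 2536 and 2514. The EGF gene lies elsewhere on the same chromosome. The block was thus at or near 0 in both media, with the nearest flanking genes detected. Beyond MTHFD2L, CXCL2 had only 38 counts and CXCL3 614, and beyond PARM1, RCHY1 had 6481 and THAP6 1476.

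The other ERBB ligands, EPGN and the neuregulins NRG1 to NRG4, gave 0 of 5 called by edgeR (25.3% over all genes), with 1 of 5 at an unadjusted p under 0.05, 0 in DESeq2 and 2 in limma-voom, and none adjusted in either. NRG3, a ligand of ERBB4, had 5.40, 4.74 and 5.26 CPM with the additives, against 6.67, 6.03 and 5.79 CPM in E8 alone (log2 fold change -0.26, SE 0.098, adjusted p = 0.0714). The groups did not overlap, with each PEG and HS library below each control. NRG4, another ligand of ERBB4, had 0.830, 0.956 and 0.739 CPM with the additives, against 0.519, 0.400 and 0.665 CPM in E8 alone, with each PEG and HS library above each control (0.66, SE 0.31, adjusted p = 0.14). NRG1, a ligand of ERBB3 and ERBB4, had 48 to 82 counts per library and overlapping groups (-0.27, adjusted p = 0.34). NRG2 and EPGN had 0.186 and 0.0616 CPM in E8 control, too few to resolve a change. The median of the 5 was -0.27, and 2 of them, NRG3 and NRG4, had groups without overlap, against 39.3% of all genes tested.

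**Figure D2:**
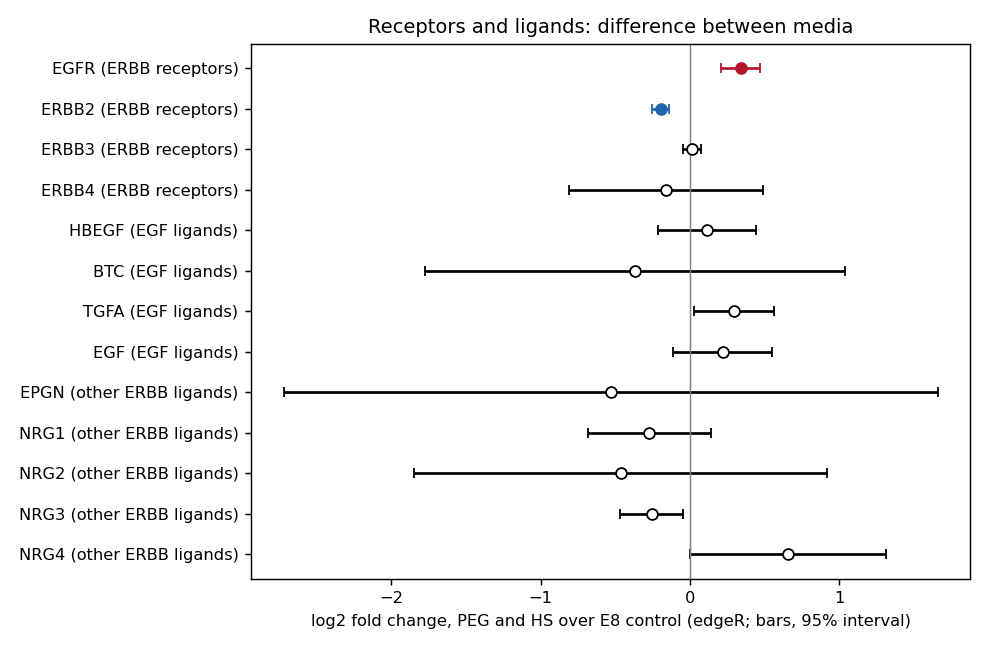
Log2 fold change of PEG and HS over E8 control for the 8 family genes and the 5 other ERBB ligands that were tested, with bars for 95% intervals. Filled points are called at an adjusted p under 0.05. EGFR (0.34) and ERBB2 (-0.20) are the filled points, and the bars of BTC, EPGN and NRG2 are the widest.

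To compare genes with each other, CPM were divided by the length of all exons of the gene in kilobases. On this scale ERBB2 led with 55.9 ± 0.841 CPM per kb in PEG and HS and 64.1 ± 1.39 in E8 control (SD, n = 3), followed by ERBB3 with 12.2 ± 0.0894 and 12.1 ± 0.0499. All other members were under 1 CPM per kb. EGFR had 0.921 ± 0.0333 and 0.727 ± 0.00858 CPM per kb, TGFA 0.806 ± 0.0625 and 0.652 ± 0.0573, and HBEGF 0.790 ± 0.0328 and 0.733 ± 0.0527. In E8 control the libraries of HBEGF overlapped those of both EGFR and TGFA, while each EGFR library lay above each TGFA library. In PEG and HS those of EGFR lay above those of TGFA and HBEGF, which overlapped. EGF had 0.332 and 0.284 CPM per kb, ERBB4 0.0450 and 0.0499 and BTC 0.0387 and 0.0503, the last pair again without separation. With the length of the canonical transcript in place of all exons, ERBB2, ERBB3 and EGFR kept the same order at the head of the members, at 145, 25.2 and 1.17 CPM per kb in E8 control.

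As a share of the length-scaled receptor transcripts, ERBB2 made up 80.7%, 81.2% and 80.9% with the additives, against 83.6%, 83.3% and 82.9% in E8 alone. The ERBB3 share was 17.7 ± 0.284% in PEG and HS and 15.7 ± 0.337% in E8 control. EGFR had 1.33 ± 0.0359% and 0.944 ± 0.0231%, and ERBB4 0.0651% and 0.0649%. The shares of ERBB2, ERBB3 and EGFR did not overlap between media. The ERBB3 share was larger in PEG and HS beside an ERBB3 level whose interval of change included 0, while the ERBB2 level in the same sum was lower. These shares are proportions of RNA and not of receptor protein.

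**Figure D3:**
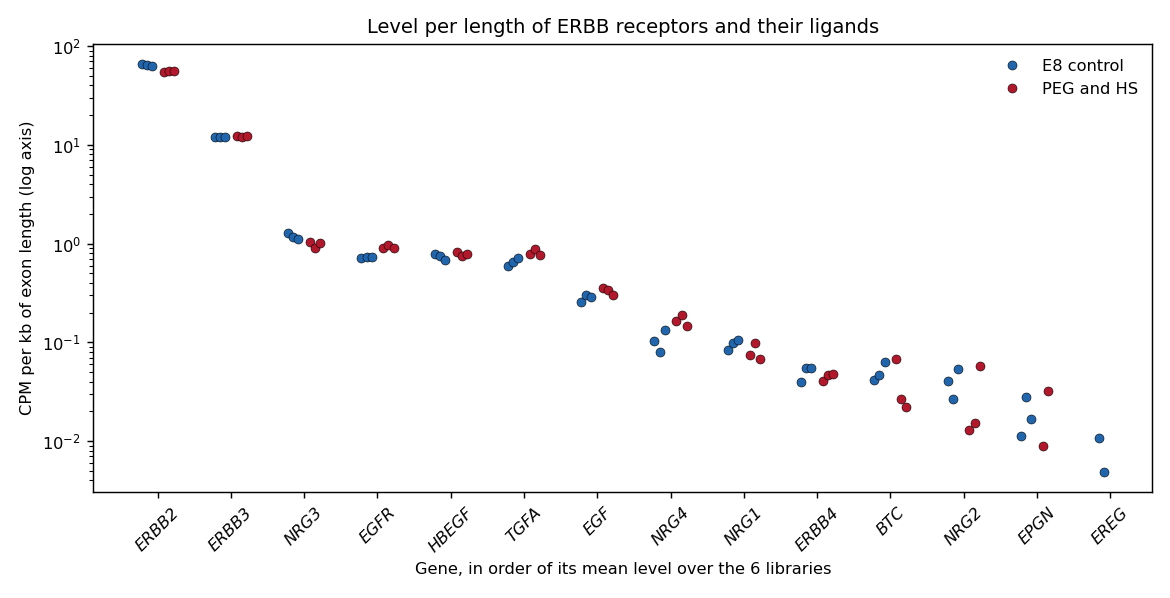
Level of each gene in CPM per kilobase of exon on a log axis, for the family and the other ERBB ligands, by medium. Points are libraries, values of 0 are not drawn, and AREG is left out as it had no counts. ERBB2 (55.9 and 64.1) and ERBB3 (12.2 and 12.1) stand above all others in both media.

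The 250 bases before the start sites of EGFR and ERBB2 are shown, since these were the members that differed between media. They are printed 5′ to 3′ on the coding strand from GRCh38, with letters of searched motifs on either strand in capitals. For EGFR the window is chr7:55018767-55019016 (plus strand), before the first RefSeq start. ERBB2 has one window before its RefSeq start, chr17:39687844-39688093, and one before the start of its canonical GENCODE transcript, chr17:39699814-39700063 (both plus strand).
EGFR: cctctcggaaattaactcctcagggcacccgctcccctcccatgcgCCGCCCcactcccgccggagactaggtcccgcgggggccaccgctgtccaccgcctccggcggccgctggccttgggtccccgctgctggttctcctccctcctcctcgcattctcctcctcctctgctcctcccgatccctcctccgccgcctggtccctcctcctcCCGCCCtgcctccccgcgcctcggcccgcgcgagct
ERBB2 RefSeq start: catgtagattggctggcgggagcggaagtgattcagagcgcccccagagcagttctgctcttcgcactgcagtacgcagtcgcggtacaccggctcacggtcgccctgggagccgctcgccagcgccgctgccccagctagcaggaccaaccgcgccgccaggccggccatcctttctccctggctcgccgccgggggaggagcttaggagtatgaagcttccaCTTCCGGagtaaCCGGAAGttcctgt
ERBB2 canonical start: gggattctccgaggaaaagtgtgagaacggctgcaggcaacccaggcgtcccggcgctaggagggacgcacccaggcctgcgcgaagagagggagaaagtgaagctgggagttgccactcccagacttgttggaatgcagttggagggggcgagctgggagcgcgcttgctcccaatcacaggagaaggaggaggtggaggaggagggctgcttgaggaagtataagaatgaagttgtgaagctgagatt
The motifs searched were GGGCGG (the core bound by SP1), CCGGAAG (a core of ETS factor sites), TGACTCA (an AP-1 site) and TATAAA. They occurred in 42.5%, 8.48%, 4.22% and 10.8% of 34943 RefSeq windows of the same length. The EGFR window was 73.6% G and C and held GGGCGG at 2 places, with first letters 204 and 36 bases before the start, both on the opposite strand as CCGCCC. The window before a second RefSeq start of EGFR, further into the gene, held no GGGCGG but TGACTCA and TATAAA at 2 places each. The ERBB2 RefSeq window (65.6% G and C) held CCGGAAG at 2 places, 26 and 14 bases before the start, one on each strand. This window runs past 39687914, where the GENCODE gene of ERBB2 begins, so part of it lies inside the annotated gene. The ERBB2 canonical window (58.8% G and C) held none of the 4. These matches describe letters in these windows only.

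Transcripts of the proteins that release and carry the ligands were counted as a list. Of 12 shedding and trafficking genes, 2 were called by edgeR (25.3% over all genes), 1 higher and 1 lower, with a median log2 fold change of 0.048. ADAM17, the main releasing protease for TGF-alpha, HB-EGF and amphiregulin, had 41.9 and 41.8 CPM in PEG and HS and E8 control (0.0025, SE 0.042, adjusted p = 0.98). ADAM10, which releases EGF and betacellulin, had 148 and 150 CPM (-0.011, SE 0.031, adjusted p = 0.835). CD9, a tetraspanin that associates with membrane-bound HB-EGF, rose from 81.5 to 93.6 CPM (0.20, SE 0.033, adjusted p = 0.000372). ADAM12 was lower, with 1.30 against 2.20 CPM (-0.76, SE 0.23, adjusted p = 0.0234). The call of ADAM12 was lost without PEG and HS replicate 1 (adjusted p = 0.0973), without E8 control replicate 1 (0.0537) and without E8 control replicate 2 (0.076).

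Of 11 receptor inhibitors and ubiquitin ligase genes, 7 passed (25.3% over all genes), 1 upward and 6 downward, with a median log2 fold change of -0.16. As these genes were listed with earlier results of these data known, their count is not an independent test. ERRFI1, encoding the EGFR kinase inhibitor MIG6, was the one that rose. It had 84.4, 80.8 and 84.4 CPM with the additives, against 60.1, 57.4 and 59.8 CPM in E8 alone, groups far apart, with a log2 fold change of 0.50 (SE 0.034, adjusted p = 3.775e-08). The 6 that fell were SH3KBP1, an adaptor of CBL in receptor uptake (-0.34, SE 0.054, adjusted p = 0.000237), SOCS5 (-0.29, SE 0.053, adjusted p = 0.000899) and SOCS4, both linked to EGFR degradation, LRIG1, a membrane protein that lowers ERBB receptor levels, its relative LRIG2, and RNF41, a ubiquitin ligase for ERBB3. CBL, the ubiquitin ligase of activated EGFR, had 233 and 232 CPM (0.0038, adjusted p = 0.941).

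Of 30 adaptors and members of the RAS, ERK and PI3K routes, 9 were called, 6 higher and 3 lower, with a median log2 fold change of 0.022. The count was 5 when PEG and HS replicate 1, E8 control replicate 2 or E8 control replicate 3 was left out. Over all genes 25.3% were called, or 4173 genes, and 3114 to 3674 with 1 library left out. PIK3R1, a regulatory subunit of PI3K, rose from 13.3 to 16.7 CPM (0.32, SE 0.065, adjusted p = 0.00184), and SHC1, an adaptor that binds activated receptors, from 288 to 346 CPM (0.26, SE 0.030, adjusted p = 8.899e-06). MAPK3, which encodes ERK1, fell from 46.7 to 41.2 CPM (-0.18, SE 0.040, adjusted p = 0.00362).

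Of 15 genes known to respond to ERK, 13 passed, 11 upward and 2 downward (12.2% and 13.1% over all genes), with a median log2 fold change of 0.53. The genes listed were chosen with earlier results of these data known, so their count is not an independent test. This list is shared by FGF signalling, which E8 feeds with FGF2, and does not belong to the ERBB receptors alone. SPRY4, a feedback inhibitor of RAS and ERK, rose from 189 to 327 CPM (0.79, SE 0.036, adjusted p = 2.474e-10) and DUSP5, a phosphatase of ERK, from 26.2 to 46.7 CPM (0.83, SE 0.047, adjusted p = 4.005e-09). EGR1, an immediate early transcription factor, had 8.75, 8.46 and 8.45 CPM with the additives, against 34.0, 30.8 and 31.7 CPM in E8 alone. It thus fell in every PEG and HS library (-1.91, SE 0.060, adjusted p = 4.862e-12), against the direction of most of the list, and PHLDA1 was the other that fell.

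**Figure D4:**
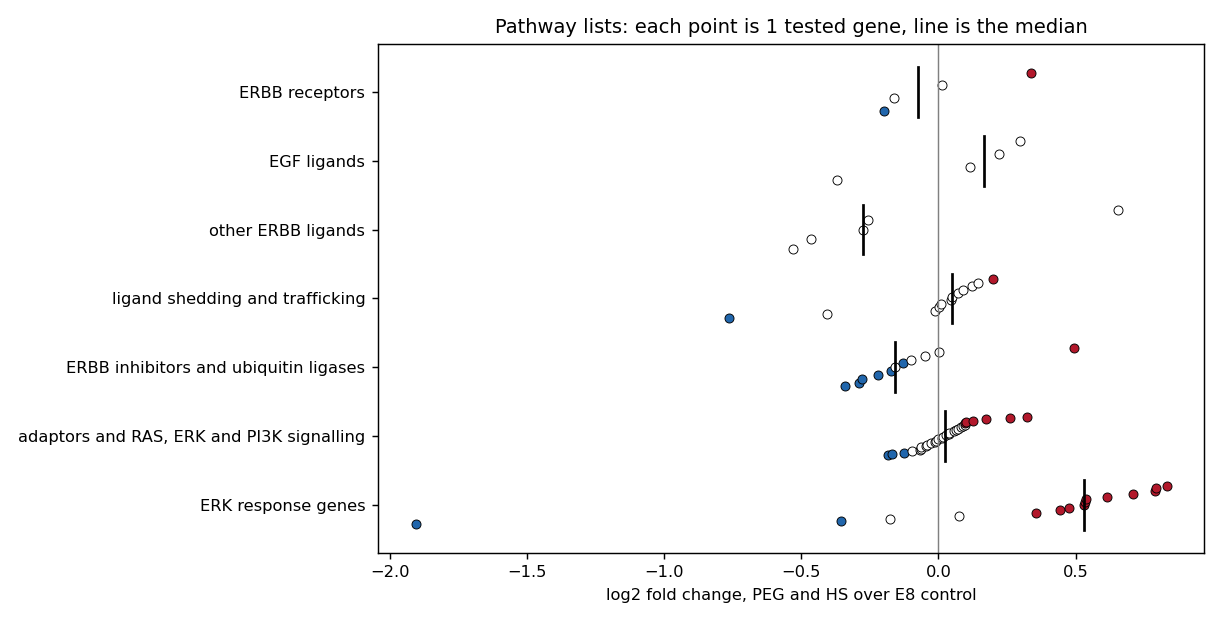
Log2 fold change of PEG and HS over E8 control for each tested gene of the ligand, receptor and pathway lists. Red points are called higher, blue points called lower, open points are not called, and lines mark list medians. The ERK response genes have a median of 0.53 with EGR1 at -1.91, while the adaptors spread around 0.022. Lists were chosen with earlier results of these data known.

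Some markers of other cell types differed between the media along with EGFR, ERBB2 and the lists above. Over all genes tested, 25.3% were called, 12.2% higher and 13.1% lower with the additives. Each of 8 neuroectoderm genes checked fell with the additives. Their summed level was 41.0 to 45.8 CPM with the additives, against 159 to 165 CPM in E8 alone. The paper had already reported SOX1, OLIG3, LHX5 and OTX2 as lower in these data, so their fall was known beforehand. Most of the summed drop lay in OTX2 (mean 79.4 to 18.6 CPM), LHX5 (29.6 to 5.73) and OLIG3 (28.1 to 9.14). The genes its text does not name as lower were PAX6 (log2 fold change -1.17), ZIC1 (-0.90), SIX3 (-1.35) and HES5 (-1.58), also called lower. The paper also refers to lesser-known ectodermal genes as lower, shown in a heatmap and not named in its text. Of 8 trophectoderm and amnion genes 6 could be tested and 4 were lower, with sums of 5.34 to 5.59 and 14.7 to 15.8 CPM and CGA at 0 in all libraries. Of 6 mesoderm and primitive streak genes 5 could be tested and 1 was lower, with sums of 5.47 to 5.63 and 5.97 to 7.34 CPM and MSGN1 at 0. The 6 endoderm genes summed to 2.93 to 2.94 and 3.55 to 4.34 CPM. Of these, 3 were tested and 0 called in edgeR, DESeq2 or limma-voom, with 1 at an unadjusted p under 0.05 in each. The mesoderm and endoderm counts are too small to set these lists apart from other genes. The 8 pluripotent stem cell genes summed to 7870 to 8041 and 7763 to 7876 CPM, with 3 called higher and 3 lower. Those higher were NANOG (log2 fold change 0.55), DPPA4 (0.30) and POU5F1 (0.23). Those lower were SOX2 (-0.59), LIN28A (-0.30) and SALL4 (-0.25). The part of these cell states in the EGFR, ERBB2 and pathway differences was not tested.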

How the data were processed

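Bulk RNA-seq counts of 6 libraries were used, 3 per medium, grouped by the treatment field of the labels. The authors prepared stranded, polyadenylated libraries, trimmed reads with Trim Galore 0.6.7, mapped them to GRCh38 with STAR 2.6.1, and deposited raw read counts per gene for each library, without normalization. The counting tool, its strand setting, its annotation and how it handled multi-mapping reads are not given in the sources used here. Of 19977 Ensembl identifiers, 19916 matched GENCODE 44, which gave symbols, coordinates and exon lengths, and 61 did not. Of the 31-base words in transcripts of the 10 members, 5.64% for ERBB3, 5.04% for EREG, 2.64% for ERBB2, 0.66% for EGF and 0% for the others also occur in transcripts of other genes. Among the pluripotent stem cell genes this was 47.6% for TDGF1, 45.1% for POU5F1, 38.2% for NANOG and 10.5% or less for the others.

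Genes reaching 10 counts in total were tested with edgeR 4.0.16 in R 4.3.3 (TMM, glmQLFit and glmQLFTest, two-sided, no covariate) on all 6 libraries, with p-values adjusted by Benjamini-Hochberg over 16505 genes and calls at an adjusted p under 0.05. CPM used the same TMM scaling. The common biological coefficient of variation was 3.12%. All members are named. Of each other list, the 3 called genes with the largest change, no overlap between media and 1 CPM or more in every library of the medium with more were named, plus the other ERBB ligands. Other genes named, such as CBL, ADAM10, ADAM17, LRIG1, LRIG2, RNF41, SOCS4 and PHLDA1, were chosen after their values were seen. The members and lists were chosen with earlier results of these data known. Alternatives were DESeq2 1.42.0, voom of limma 3.58.1, other scalings and filters, a replicate block, a test against a 1.2-fold change and each library left out in turn. The scripts were tested on simulated data. Upstream windows came from RefSeq, with entries for 9 of the 10 members (all except ERBB3), and from the GENCODE canonical start for ERBB2.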

Additional observations from a re-analysis of the deposited data

How the results depend on the processing

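Of the 10 family genes, EGFR and ERBB2 were called in each of the 15 alternatives except the test against a 1.2-fold change. That edgeR test called 0 members, with 1 at an unadjusted p under 0.05 (adjusted p = 0.405 for EGFR and 1 for ERBB2), and 868 genes in all against 4173, 215 of them higher. Of the pathway lists it called 0 shedding, 1 inhibitor and 0 adaptor genes but 11 ERK response genes. The log2 fold change of EGFR ranged from 0.31 to 0.36, that of ERBB2 from -0.21 to -0.19, that of TGFA from 0.23 to 0.36 and that of ERBB3 from 0.0021 to 0.022, each keeping its sign. BTC, on 23 counts in total, ranged from -1.03 to -0.079. DESeq2 called 3367 genes, and leaving out 1 library gave 3114 to 3674. Without PEG and HS replicate 3, EPGN turned from -0.53 to 0.051, on 10 counts in total. The correlations of deviations were 0.0229, 0.0394 and 0.0459 between libraries of the same replicate number. Between libraries of different numbers they ran from -0.0883 to 0.0457. Values this small, with 3 libraries per medium, cannot decide whether the replicate numbers pair the samples. With the replicate block, 4444 genes and the same 2 members were called. Depth limits BTC, ERBB4, NRG2 and EPGN, whose intervals span changes larger than any called in the family.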

Other observations

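Upstream letters of the other members were read in the same RefSeq windows. HBEGF held GGGCGG at 5 places and the first TGFA window at 3, in windows of 76.4% and 75.6% G and C. The window before a second RefSeq start of TGFA (64.0% G and C) held none of the 4 motifs. EREG and AREG, at or near 0 counts in these libraries, held TATAAA 32 and 29 bases before their starts, and AREG also GGGCGG 9 bases before. The EGF window held TGACTCA 17 bases before its start, ERBB4 held GGGCGG at 1 place, and the BTC window held none of the 4 motifs.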
